A study of Mus musculus with 6 samples.

Results

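The genes described here build and hold together the sarcomere, the contractile unit of heart muscle, apart from its myosin chains: they encode the thin filament, the Z-disc, the M-band and titin. The members were chosen by symbol, as a list of 39 genes drawn up with earlier results of these data known, and all 39 were found among the 47729 gene IDs of the deposited count table. The study measured RNA from left ventricular myocardium of mice at day 9 of pressure overload, which had been set up by narrowing the aorta (transverse aortic constriction, TAC). There were 3 libraries labelled Treg and 3 labelled control, called Treg 1 to 3 and Control 1 to 3 here. The series title describes regulatory T cells, made in culture and deprived of CD28 signalling, that were given systemically. All 6 libraries came from operated mice, no unoperated hearts were analysed here, and the labels do not say what the control mice received instead of cells. The sources used here give no strain, sex or age. Nor is it stated that the 3 libraries of a group are 3 animals, so the p-values cover only the spread seen among libraries, which may be technical.

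In each sarcomere, thin filaments of actin carry tropomyosin and the troponin complex, which uncovers actin's binding sites for myosin when calcium binds. Their barbed ends are anchored and crosslinked at the Z-disc by alpha-actinin, their pointed ends are capped by tropomodulins and extended by leiomodins, and titin runs as a spring between the Z-disc and the M-band. Several of these proteins come in heart, skeletal muscle and fetal versions encoded by separate genes. Pressure overload in rodents is known for bringing some fetal or skeletal versions back into the ventricle, with skeletal alpha-actin as the textbook case.

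Library totals lay between 28937253 and 29979080 counts. The summed level of 10 ventricular cardiomyocyte markers outside the list, which included Myh6, Pln and Ryr2, was 42435 to 57379 CPM (the count scaled to a common library size of 1e+06, adjusted by TMM) in the Treg libraries and 30719 to 46788 in the control libraries, so the labelled tissue was present in all 6. All 10 markers were tested, and 5 of them were higher in all Treg libraries than in all controls (13.7% of all genes were). The median log2 fold change over the 10 was 0.37, with Ryr2 at −0.19 and Slc8a1 at −0.53. Control 3 had the lowest sum. It also held the lowest value of all 6 libraries for 31.9% of the 17365 genes tested and the highest for 33.3%. Treg 3 held atrial transcripts: Myl7, the atrial light chain, was at 1202 counts there and at 1 to 6 counts in the other libraries, and the 6 atrial markers summed to 172 CPM there. In the others the atrial sum was 34.5 and 35.4 CPM for Treg 1 and 2 and 18.3 to 51.2 CPM for the controls. Among 14 skeletal muscle markers, the fast myosin genes Myh1, Myh2 and Myh4 were at 0 to 3 counts in every library. The skeletal sum of 141 to 161 CPM in the Treg libraries and 44.4 to 270 CPM in the controls came mostly from Myl1 and Casq1. In bulk tissue, fewer cardiomyocytes and less RNA of a gene per cardiomyocyte cannot be told apart.

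The largest differences relative to their error went in both directions. At the Z-disc, the Treg libraries had lower levels of Myoz1, Pdlim3 and Pdlim5, which bind alpha-actinin. Levels of Tmod4 and Lmod3, which act at the thin filament's pointed ends, and of Tcap, which anchors titin at the Z-disc, were higher. These are the members with the smallest p-values, and in the test of all genes none of them reached the threshold. They are single genes and do not stand for their classes. Among their relatives, Myoz2 had a log2 fold change of −0.06, Lmod2 0.18 and Tmod1 −0.27. With edgeR's quasi-likelihood test with Benjamini-Hochberg adjustment, 0 of 39 members and 0 of all 17365 genes (0.0%) had an adjusted p under 0.05. The smallest adjusted p among the members was 0.0871 (Myoz1). At an unadjusted edgeR p under 0.05 there were 10 members (25.6%), where all genes gave 16.5%. Of these, 3 were higher in the Treg libraries (8.23% of all genes were) and 7 were lower (8.31% of all genes were). The groups did not overlap for 12 members (30.8%) against 25.4% of all genes, with 6 above (13.7% of all genes) and 6 below (11.7%). The median log2 fold change of the members, Treg over control, was −0.01, against −0.02 over all genes.

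The other tools differed on single members. DESeq2 called 4 of the 39, against 3.74% of all genes: Myoz1, Pdlim3 and Pdlim5 lower (1.89% of all genes) and Tmod4 higher (1.85%). limma-voom called 0 of the 39, with 9 at an unadjusted p under 0.05 against 16.3% of all genes, and voom with sample quality weights called 3 against 1.33% of all genes: Myoz1 and Pdlim3 lower (0.697%) and Tmod4 higher (0.633%). Without Control 3, edgeR called 2 members, Myoz1 and Pdlim3, both lower, against 1.3% of all genes (0.674% higher and 0.629% lower). At an unadjusted p under 0.05, 4 members were then higher (9.74% of all genes) and 11 lower (8.8%). Without both Control 3 and Treg 3, edgeR called Pdlim3 and Synpo2l, both lower, against 0.684% of all genes (0.322% higher and 0.362% lower). Without Control 3 the median of the members was −0.24, against 0.00 over all genes, and 28 of 39 fold changes were below 0, against 20 of 39 with all 6 libraries.

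**Figure D1:**
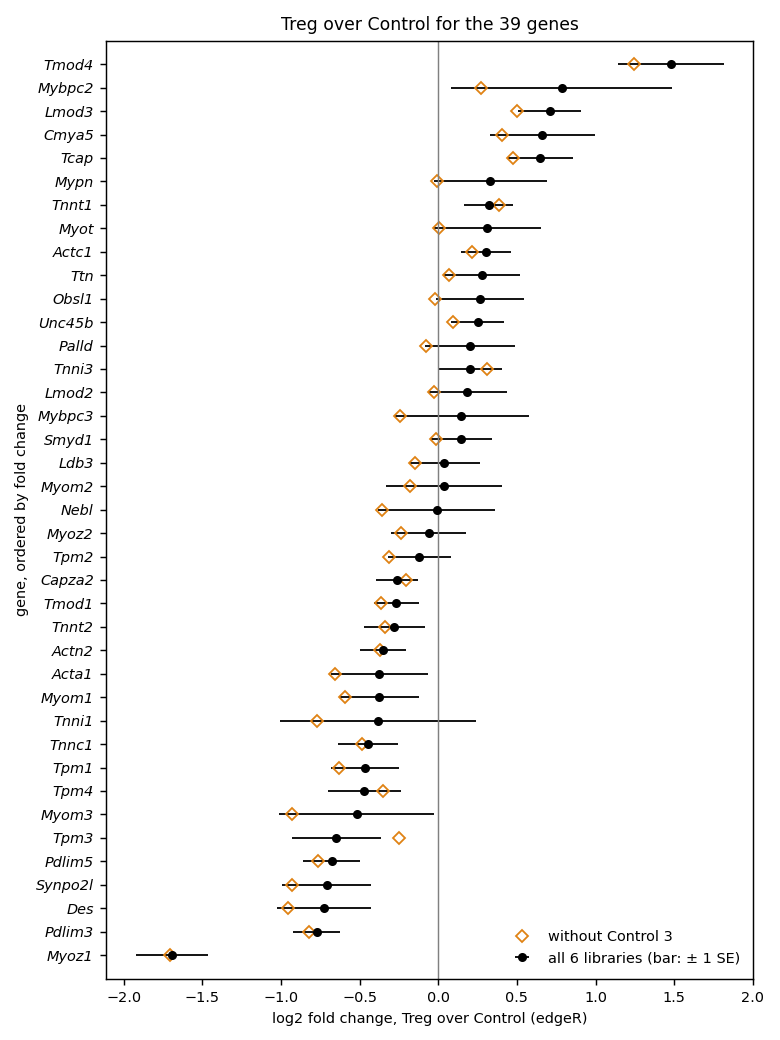
Log2 fold change of each of the 39 genes, Treg over Control, by edgeR, with genes ordered from the lowest at the bottom. Black points with bars are the values from all 6 libraries ± 1 SE, and open diamonds are the values without Control 3. Myoz1 at −1.69 and Tmod4 at 1.48 lie at the ends, and 8 genes change sign when Control 3 is left out.

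Control 3 stood apart for many members. It held the lowest value for 22 of the 39 (31.9% of all genes). Its median deviation from the 6-library mean was −0.44 on the log2 scale, against −0.09 to 0.10 in the Treg libraries and 0.30 and 0.20 in Control 1 and 2. The low values were deepest for titin, M-band and thick filament genes, with a median deviation of −0.92, and were not seen for the thin filament genes as a group, at −0.03. Control 1 held the highest value for 15 of the 39 members (12.3% of all genes). The list took 4.76%, 5.17% and 5.05% of all counts in Treg 1 to 3, against 6.33%, 6.26% and 4.45% in Control 1 to 3, so the groups overlapped. The part of Control 3's other differences in the members' values was not tested beyond leaving that library out.

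**Figure D2:**
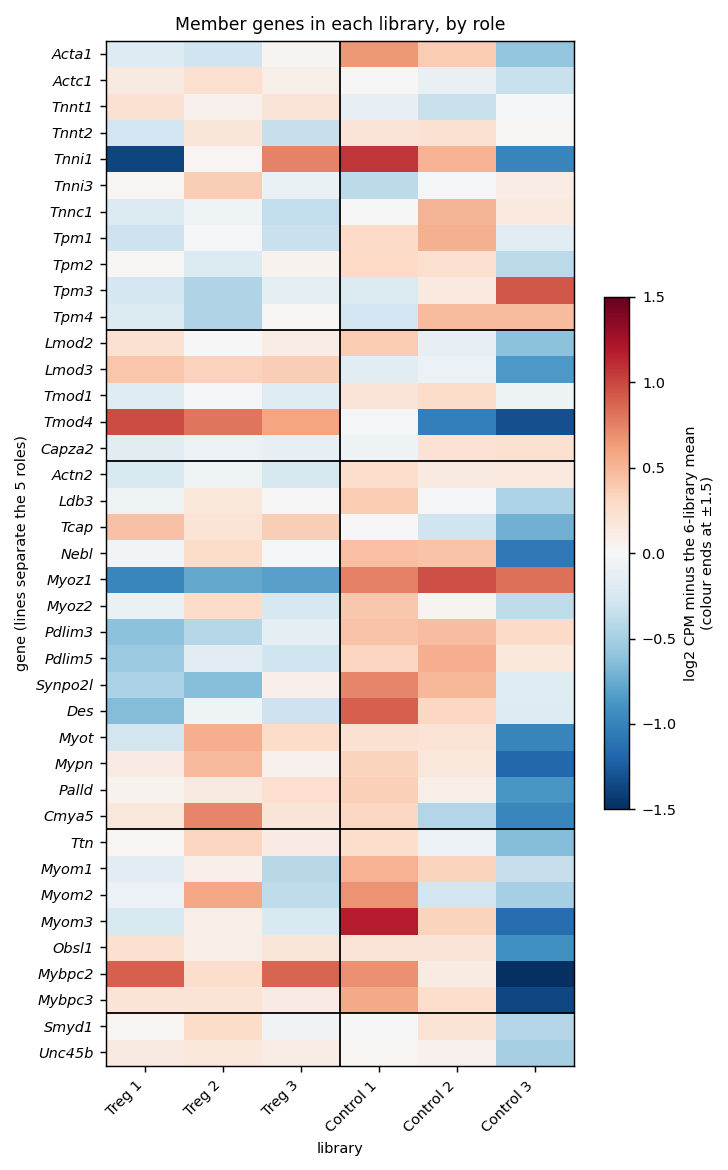
Log2 CPM of each of the 39 genes in each library minus that gene's mean over the 6 libraries, with red above and blue below, Treg libraries on the left and Control libraries on the right. Myoz1 and Pdlim3 are blue in all Treg and red in all Control libraries, Tmod4 is red in all Treg libraries, and Control 3 is blue for most genes of the Z-disc and M-band blocks.

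Compared per exon length, in TPM (counts divided by exon length and scaled to a sum of 1e+06), the members differed widely in level. Skeletal alpha-actin, Acta1, had the highest mean level over the 6 libraries, 5999 TPM, followed by Tnnc1 (3926 TPM), Actc1 (2998 TPM), Tpm1 (2165 TPM) and Tnnt2 (1880 TPM). Titin, whose merged exons span 116825 bases, stood at 74.6 TPM. The order depends on this length, which merges all annotated exons of a gene. It was 7752 bases for Tnnt2 and 6485 for Tpm1, against 1536 for Acta1 and 1041 for Tnnc1. By CPM, Tpm1 and Tnnt2 averaged above Acta1, at 9599 and 9448.5 against 6111 CPM in the controls. In the Treg libraries the averages were 6947 and 7788 against 4712 CPM. The last 4 in the order were Tnnt1 at 5.62 TPM, Myom3 at 2.44 TPM, Myoz1 at 1.17 TPM and Tnni1 at 0.34 TPM, while other genes best known from skeletal muscle lay higher, with Lmod3 at 51.7 TPM and Mybpc2 at 28.8 TPM. Which neighbours in this TPM order separated at the top differed between the groups. Acta1 stood above Tnnc1 in all Treg libraries, at 5228 ± 1207 TPM and 3276 ± 9.38 TPM, but the same genes overlapped in the controls, at 6769 ± 2527 TPM and 4575 ± 998 TPM (SD, n = 3 each). Tnnc1 and Actc1 overlapped in the Treg libraries, where Actc1 averaged 3290 ± 182 TPM, and separated in the controls, where it averaged 2707 ± 258 TPM. Tpm1 and Tnnt2 overlapped in both groups.

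**Figure D3:**
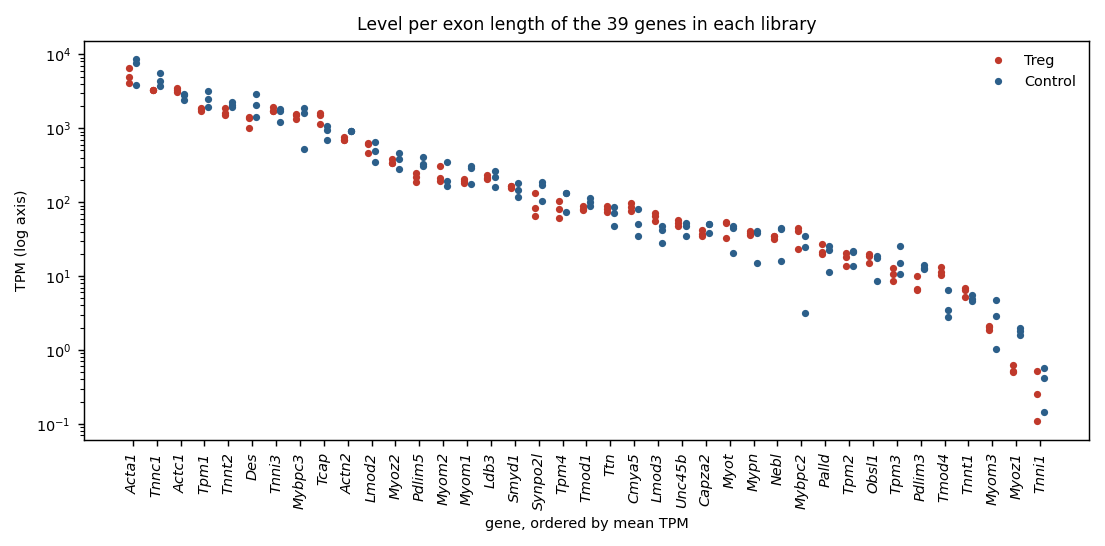
TPM of each of the 39 genes in each library on a log axis, genes ordered by their mean, with Treg in red left of Control in blue. Levels run from Acta1 at a mean of 5999 TPM to Tnni1 at 0.34 TPM, and the groups separate for Tmod4, Pdlim3 and Myoz1 in the low part of the order.

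The thin filament core comprised 11 members, and 1 of them had an unadjusted edgeR p under 0.05 (9.09%, against 16.5% of all genes). The group's median log2 fold change was −0.38, and 8 of 11 values were below 0 (72.7%, against 52.0% of all genes). Without Control 3 there were also 8 below 0. Acta1 (ENSMUSG00000031972, chromosome 8, 123891769 to 123894751, GRCm38), the actin of skeletal muscle and of the stressed heart, was at 4551, 4227 and 5358 CPM in Treg 1 to 3, against 8129, 6752 and 3454 CPM in Control 1 to 3. Control 1 and 2 lay above all Treg libraries and Control 3 lay below them. Its log2 fold change was −0.38 ± 0.31 (SE; edgeR adjusted p = 0.546) and ranged from −0.66 without Control 3 to −0.11 without Control 1. Actc1 (ENSMUSG00000068614, chromosome 2, 114047282 to 114053548), the main actin of the adult heart, was at 3114, 3359 and 3014 CPM in the Treg libraries, against 2828, 2620 and 2246 CPM in the controls. The lowest Treg value, Treg 3, was above the highest control value, Control 1, with a log2 fold change of 0.30 ± 0.16 (edgeR adjusted p = 0.379). The 2 actin genes encode nearly the same protein, and the sources used here do not give how any reads that fit both genes were divided. Their promoters are shown because the actin pair is the best known isoform pair of the list. Both windows run from 250 bases before to 50 bases after the transcript start on the minus strand (RefSeq, GRCm38.p6), Acta1 at chr8:123894726-123895025 and Actc1 at chr2:114052826-114053125. Capitals mark a CArG box, the binding motif of serum response factor, in both, and in Acta1 also CATTCC, the core of the TEAD factors' motif.
Acta1: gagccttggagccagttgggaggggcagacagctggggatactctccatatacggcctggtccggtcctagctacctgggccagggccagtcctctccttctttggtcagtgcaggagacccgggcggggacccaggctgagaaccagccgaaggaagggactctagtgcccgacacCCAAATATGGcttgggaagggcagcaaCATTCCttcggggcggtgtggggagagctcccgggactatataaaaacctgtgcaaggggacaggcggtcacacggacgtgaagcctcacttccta
Actc1: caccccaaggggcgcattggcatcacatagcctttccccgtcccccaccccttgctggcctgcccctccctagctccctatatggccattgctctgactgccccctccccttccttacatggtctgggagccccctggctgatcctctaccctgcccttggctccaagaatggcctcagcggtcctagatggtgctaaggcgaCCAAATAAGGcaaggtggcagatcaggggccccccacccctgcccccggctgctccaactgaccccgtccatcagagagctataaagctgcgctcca

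The troponin genes had log2 fold changes on both sides of 0. Tnnc1, the calcium-binding subunit shared by heart and slow muscle, was at 2026, 2255 and 1820.2 CPM in Treg 1 to 3, against 2349, 3353 and 2617 CPM in Control 1 to 3. All Treg libraries lay below all controls (−0.45 ± 0.19, unadjusted p = 0.048, edgeR adjusted p = 0.298). Tnni3, the cardiac inhibitory subunit, was at 2059, 2612 and 1886 CPM in the Treg libraries and at 1532, 1998 and 2175 CPM in the controls, which overlapped (0.20 ± 0.20, edgeR adjusted p = 0.625). Tnnt2, the cardiac tropomyosin-binding subunit, was at 6983, 9683 and 6697 CPM in the Treg libraries, against 9717, 9980 and 8649 CPM in the controls, and also overlapped (−0.28 ± 0.20, edgeR adjusted p = 0.488). The slow skeletal form Tnnt1 was at 8.44, 7.57 and 8.23 CPM in the Treg libraries, against 6.63, 5.73 and 7.07 CPM in the controls. Its groups did not overlap, with a log2 fold change of 0.32 ± 0.16 (edgeR adjusted p = 0.351). Tnni1, the form that Tnni3 replaces after birth, had only 7, 17 and 32 counts in the Treg libraries, against 36, 26 and 9 in the controls. These overlapped widely (−0.38 ± 0.62), and its fold change turned to 0.01 without Treg 1 and 0.09 without Control 1.

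Of the 4 tropomyosin genes, Tpm1, the main cardiac one, was at 6483, 7939 and 6420.1 CPM in Treg 1 to 3, against 9844, 11700.0 and 7253 CPM in Control 1 to 3. Only Treg 2 reached the control range, and the log2 fold change was −0.47 ± 0.22 (edgeR adjusted p = 0.332). Tpm3 and Tpm4, which also give rise to tropomyosins of non-muscle cells, had log2 fold changes of −0.65 ± 0.28 and −0.47 ± 0.23 (edgeR adjusted p = 0.308 and 0.354). Tpm3 was highest in Control 3, at 89.5 CPM against 34.4 to 51.7 CPM in all other libraries, and its fold change was −0.25 without that library. Fibroblast markers, 7 of 7 tested, summed to 3473 to 6604 CPM in the Treg libraries and 5401 to 8304 CPM in the controls. Their median log2 fold change was −0.40, with 1 of the 7 higher in all Treg libraries (13.7% of all genes) and 0 lower (11.7%). The part of the fibroblast markers in the tropomyosin values was not tested. Tpm2, a tropomyosin of slow and smooth muscle, was at 26.6 to 31.8 CPM in the Treg libraries and 23.2 to 37.7 CPM in the controls.

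Of the 3 members that were higher in Treg at an unadjusted edgeR p under 0.05, the group acting at thin filament ends, with 5 members, held 2 (8.23% of all genes were higher). Tmod4 (ENSMUSG00000005628, chromosome 3, 95124476 to 95129209), the tropomodulin that caps pointed ends in skeletal muscle, was at 13.5, 11.9 and 10.3 CPM in Treg 1 to 3, against 6.70, 3.34 and 2.73 CPM in Control 1 to 3. The lowest Treg library lay above the highest control. The log2 fold change was 1.48 ± 0.34 (edgeR adjusted p = 0.156, DESeq2 adjusted p = 0.00282), the largest positive one of the list, and it stayed between 1.24 and 1.98 when single libraries were left out. Over the alternatives tried the adjusted p ran from 0.00282 to 0.593. The ventricular cardiomyocyte markers also had a positive median, 0.37, and their part in the values of Tmod4 and Lmod3 was not tested. Lmod3 (ENSMUSG00000044086, chromosome 6, 97238534 to 97252759), a leiomodin whose loss causes nemaline myopathy in humans, was at 86.0, 81.8 and 83.3 CPM in the Treg libraries, against 57.3, 60.7 and 35.6 CPM in the controls. The Treg libraries were tightly grouped and all lay above the controls (0.71 ± 0.20, edgeR adjusted p = 0.206, DESeq2 adjusted p = 0.0555). The cardiac counterparts differed less: Lmod2, the leiomodin of heart muscle, had 0.18 ± 0.25 and turned to −0.03 without Control 3, and Tmod1, the tropomodulin of heart muscle, had −0.27 ± 0.14 (edgeR adjusted p = 0.721 and 0.384). Capza2, a subunit of the barbed-end capping protein CapZ, was at 128, 136 and 132 CPM in the Treg libraries, against 136, 167 and 171 CPM in the controls, so the groups met at 136 CPM without overlapping, with a log2 fold change of −0.26 ± 0.14 (edgeR adjusted p = 0.370). The promoter window of Tmod4 on the plus strand (chr3:95124264-95124563, RefSeq, GRCm38.p6) is shown as that of the member with the largest positive value. It holds no match to the 3 motifs searched and so has no capitals.
Tmod4: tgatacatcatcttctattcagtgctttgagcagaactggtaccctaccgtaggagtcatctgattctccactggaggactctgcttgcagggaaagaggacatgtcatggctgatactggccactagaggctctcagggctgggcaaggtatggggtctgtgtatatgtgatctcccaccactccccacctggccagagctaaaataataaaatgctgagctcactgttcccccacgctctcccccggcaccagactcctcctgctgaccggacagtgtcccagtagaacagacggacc

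The Z-disc group held members at both ends of the range. Of its 14 members, 7 had an unadjusted edgeR p under 0.05 (against 16.5% of all genes), with 6 lower (8.31% of all genes) and 1 higher (8.23%) in Treg, and the median log2 fold change was −0.03 with all libraries and −0.30 without Control 3. Myoz1 (ENSMUSG00000068697, chromosome 14, 20649107 to 20656540), a myozenin (calsarcin) that tethers calcineurin to alpha-actinin in fast skeletal muscle, had 17, 18 and 20 counts in Treg 1 to 3, against 53, 64.8 and 57.8 in Control 1 to 3. The levels were 0.613 ± 0.0462 CPM and 1.99 ± 0.149 CPM (Treg and control, SD, n = 3 each). At counts this low, the small SDs say little about the spread between libraries. Its log2 fold change was −1.69 ± 0.23 (edgeR adjusted p = 0.0871, DESeq2 adjusted p = 0.000566), with −1.73 to −1.63 when single libraries were left out, and the adjusted p ran from 0.000566 to 0.496 over the alternatives. Control 3, where the summed skeletal muscle markers were lowest at 44.4 CPM, held Myoz1 at 1.95 CPM, within the range of Control 1 and 2. That sum followed mostly Myl1, at 19.7 CPM in Control 3 against 226 and 136 CPM in Control 1 and 2. Casq1 and Tnnt3 were also lower there than in Control 1 and 2, while Atp2a1 was higher. The 6 skeletal muscle markers that were tested had a median log2 fold change of −0.43. The part of skeletal muscle tissue in the Myoz1 values was not tested. Myoz2, the cardiac myozenin, stood at 726 ± 139 CPM in the Treg libraries and 757 ± 201 CPM in the controls (−0.06 ± 0.24, edgeR adjusted p = 0.915).

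The PDZ-LIM proteins Pdlim3 and Pdlim5, which bind alpha-actinin at the Z-disc, were both lower in the Treg libraries without overlap. Pdlim3 (ENSMUSG00000031636, chromosome 8, 45885461 to 45919548) was at 19.8, 22.6 and 27.5 CPM in Treg 1 to 3, against 40.8, 41.6 and 36.9 CPM in Control 1 to 3. The log2 fold change was −0.77 ± 0.15 (edgeR adjusted p = 0.127, DESeq2 adjusted p = 0.0023), and −0.82 without Control 3, where the edgeR adjusted p was 0.0426. Over the alternatives its adjusted p ran from 0.0023 to 0.530. Pdlim5 was at 975, 1283 and 1172 CPM in the Treg libraries, against 1799, 2090.5 and 1597 CPM in the controls (−0.68 ± 0.18, edgeR adjusted p = 0.187, DESeq2 adjusted p = 0.012). Its adjusted p ran from 0.012 to 0.609 over the alternatives. The promoter window of Pdlim3 on the plus strand (chr8:45885237-45885536, RefSeq, GRCm38.p6) is shown because Pdlim3 was called under more alternatives, 4, than any other member. Capitals mark its 2 matches to CATTCC, the first on the opposite strand and the second 11 to 6 bases before the start.
Pdlim3: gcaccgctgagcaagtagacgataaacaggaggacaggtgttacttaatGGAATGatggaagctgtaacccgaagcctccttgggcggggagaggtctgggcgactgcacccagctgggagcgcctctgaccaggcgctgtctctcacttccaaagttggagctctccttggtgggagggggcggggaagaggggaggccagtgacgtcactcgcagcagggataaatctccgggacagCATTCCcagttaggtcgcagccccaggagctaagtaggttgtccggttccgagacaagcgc

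Actn2, the alpha-actinin that crosslinks thin filaments at the Z-disc, was at 1538, 1724 and 1527.5 CPM in Treg 1 to 3, against 2156, 1972 and 1991 CPM in Control 1 to 3. The groups did not overlap, with a log2 fold change of −0.35 ± 0.15 (edgeR adjusted p = 0.292) that kept between −0.41 and −0.30 when single libraries were left out. Des, desmin, the intermediate filament that links Z-discs to each other, was at 2273, 3398 and 2872 CPM in the Treg libraries, against 6643, 4402 and 3109 CPM in the controls. Control 3 lay inside the Treg range (−0.73 ± 0.30, edgeR adjusted p = 0.291), and the log2 fold change was −0.96 without it and −0.39 without Control 1. Synpo2l, an actin-bundling partner of alpha-actinin, was at 226, 202 and 332 CPM in the Treg libraries, against 521, 445 and 277 CPM in the controls, with Treg 3 and Control 3 overlapping (−0.71 ± 0.28, edgeR adjusted p = 0.285).

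Tcap, telethonin, which caps the titin ends at the Z-disc, went the other way. It was at 849, 719 and 807 CPM in Treg 1 to 3, against 628, 509.5 and 378 CPM in Control 1 to 3, with no overlap (0.65 ± 0.21, edgeR adjusted p = 0.233, DESeq2 adjusted p = 0.0701). Its log2 fold change was 0.48 without Control 3. Cmya5, myospryn, a large desmin-binding protein, had 0.66 ± 0.33 (edgeR adjusted p = 0.357), but its groups overlapped, since Control 1 at 579 CPM lay above Treg 1 at 528 CPM and Treg 3 at 537 CPM. The related immunoglobulin-domain proteins myotilin (Myot), myopalladin (Mypn) and palladin (Palld) had 0.31, 0.33 and 0.20. All 3 were lowest in Control 3, at 26.1, 50.02 and 67.7 CPM, and without it their values were 0.01, −0.01 and −0.08. Ldb3, the Z-disc protein Cypher, and Nebl, nebulette, had 0.04 and −0.01 (edgeR adjusted p = 0.945 and 0.993), and 3 of the 14 Z-disc members (Ldb3, Mypn and Palld) changed sign without Control 3.

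**Figure D4:**
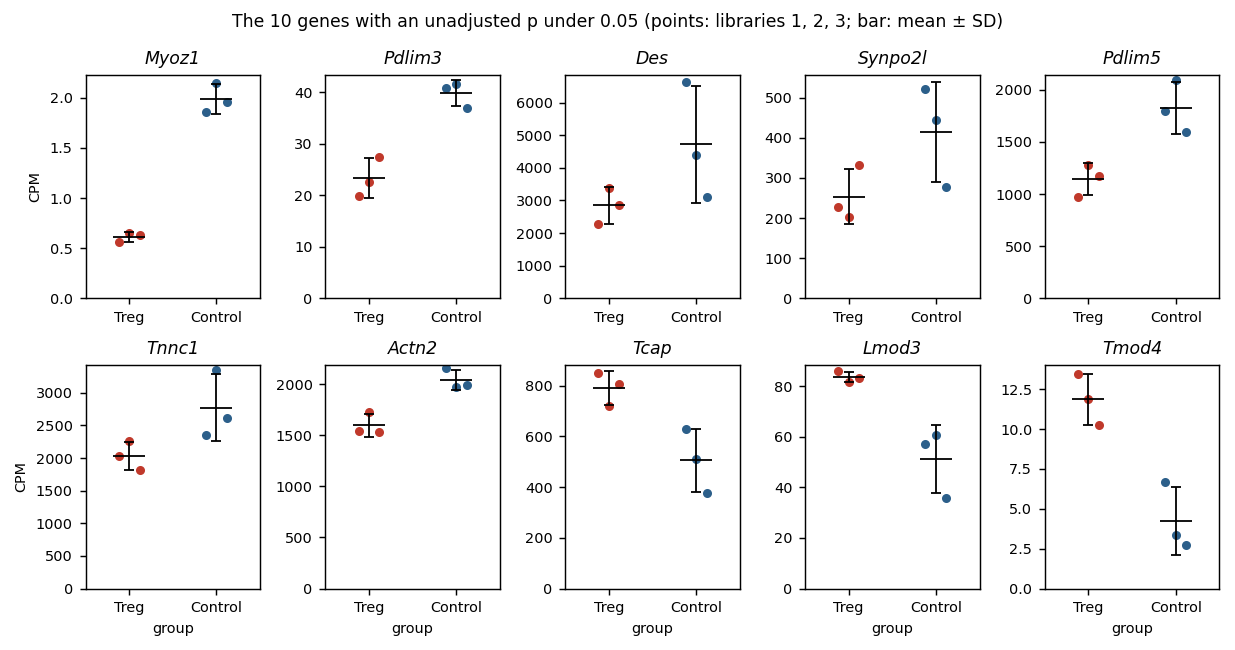
CPM in each library for the 10 genes with an unadjusted edgeR p under 0.05, 7 lower and 3 higher in Treg, with Treg in red left of Control in blue, points in the order of replicates 1 to 3 and bars for the mean ± SD. Des and Synpo2l overlap through Control 3, while the other 8 separate.

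Titin, the M-band and the myosin-binding proteins showed no gene whose groups separated. An unadjusted edgeR p under 0.05 was reached by 0 of 7 members, against 16.5% of all genes, and 0 of 7 had groups that did not overlap, against 25.4% of all genes. Ttn, the titin spring, was at 5156, 6301 and 5478.5 CPM in Treg 1 to 3, against 6053, 4734 and 3208 CPM in Control 1 to 3 (0.28 ± 0.25, edgeR adjusted p = 0.579), and had 0.07 without Control 3. Mybpc3, the cardiac myosin-binding protein C, was at 3508 to 3712 CPM in the Treg libraries, against 4758, 3861 and 1244 CPM in Control 1 to 3. Its log2 fold change of 0.15 ± 0.43 became −0.24 without Control 3. Its fast skeletal relative Mybpc2 was at 88.2, 56.5 and 86.9 CPM in the Treg libraries, against 76.3, 51.6 and 6.53 CPM in the controls. Its fold change of 0.79 ± 0.70 was 0.27 without Control 3. The myomesins, which crosslink myosin at the M-band, were scattered. Myom1 had −0.38 ± 0.25, Myom2 had 0.04 ± 0.37 and Myom3 had −0.52 ± 0.49 (edgeR adjusted p = 0.472, 0.967 and 0.601). Myom3 was highest in Control 1, at 17.6 CPM, and lowest in Control 3, at 3.53 CPM, with the Treg libraries at 6.63 to 8.33 CPM. Obsl1, obscurin-like 1, had 0.26 ± 0.28 and −0.02 without Control 3.

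Of the 2 assembly factors, Unc45b, the chaperone that folds myosin heads, was at 139, 142 and 138 CPM in Treg 1 to 3, against 129, 132 and 90.1 CPM in Control 1 to 3. The groups did not overlap, but the log2 fold change was 0.25 ± 0.17 (edgeR adjusted p = 0.470) and 0.09 without Control 3. Smyd1, a muscle methyltransferase needed for sarcomere assembly, had 0.15 ± 0.20 (edgeR adjusted p = 0.723).

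Ratios within gene pairs need no scaling between libraries, and 12 pairs of related genes were compared. Of these, 3 separated the groups completely. Each had an exact two-sided permutation p of 0.1, the smallest that 3 against 3 libraries allow, and an adjusted p of 0.343 over the 12 pairs. Of single genes, 25.4% of all tested separated the groups, and no share over other gene pairs was computed. In these 3 pairs the first gene (Tmod4, Lmod3 or Myoz1) also separated the groups by itself, so the ratios largely repeat its values. The log2 ratio of Tmod4 to Tmod1 averaged −4.03 ± 0.20 in the Treg libraries and −5.87 ± 0.61 in the controls (SD, n = 3 each), a difference of 1.84. Per exon length, Tmod4 made up 14.2%, 11.7% and 11.2% of the pair in Treg 1 to 3, against 5.98%, 2.92% and 3.02% in Control 1 to 3. The ratio of Lmod3 to Lmod2 was higher by 0.51, with Lmod3 at 9.64%, 10.6% and 10.1% of the pair in the Treg libraries, against 6.04%, 8.81% and 7.36% in the controls. The ratio of Myoz1 to Myoz2 differed by −1.63, with Myoz1 under 1% of the pair in all libraries.

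The actin ratio overlapped between the groups. Acta1 made up 60.6%, 57.0% and 65.2% of the actin pair per exon length in Treg 1 to 3, against 75.2%, 73.1% and 61.8% in Control 1 to 3. The difference in log2 ratio was −0.60 (exact permutation p = 0.2, adjusted p = 0.343), and Control 3 lay inside the Treg range. Tnnt1 to Tnnt2 had a difference of 0.62 and Mybpc2 to Mybpc3 one of 1.00 (exact permutation p = 0.2 each), and both overlapped. The difference for Mybpc2 to Mybpc3 was 0.51 without Control 3 and 0.38 without both Control 3 and Treg 3. The Tnni1 to Tnni3 ratio had a difference of −0.59 (exact permutation p = 0.7), and Tnni1 made up at most 0.0472% of the pair in any library. That difference was −1.27 without Control 3 and −0.02 without Control 1. The tropomyosin ratios to Tpm1 differed by 0.36 for Tpm2, −0.12 for Tpm3 and 0.01 for Tpm4, and the myomesin ratios to Myom1 by 0.42 for Myom2 and 0.10 for Myom3.

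**Figure D5:**
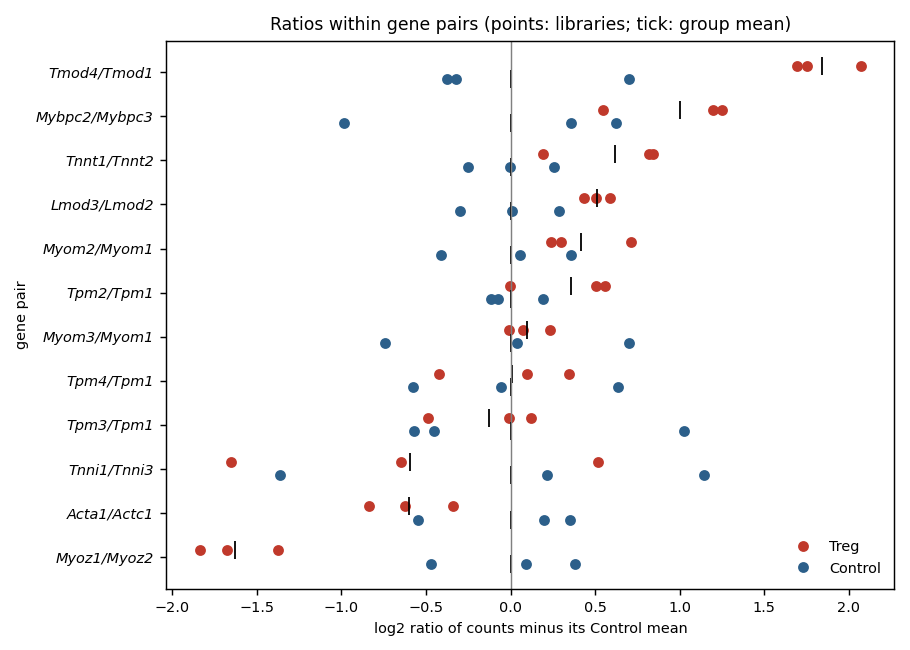
Log2 ratio of the counts of 2 related genes in each library, minus the mean of the Control libraries for that pair, with Treg in red above Control in blue and a black tick at each group mean. Tmod4/Tmod1 and Lmod3/Lmod2 lie higher and Myoz1/Myoz2 lies lower in all Treg libraries, and the other 9 pairs overlap.

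A second list of 51 sarcomere and Z-disc partner genes outside the 39 was read in the same fit, and 46 of them passed the filter on low counts. The list was also drawn up with earlier results of these data known. It includes genes not particular to the heart sarcomere, such as the non-muscle Actn1 and the skeletal muscle marker Tnnt3. By edgeR 0 of the 46 passed over all genes, while 12 were lower (8.31% of all genes) and 0 higher (8.23%) at an unadjusted edgeR p under 0.05. Its median log2 fold change was −0.26, against −0.02 over all genes, and 14 of the 46 lay below all controls (11.7% of all genes) and 3 above (13.7%). Those with the smallest p were Pdlim7, the Enigma relative of Pdlim3 and Pdlim5, at 54.0 ± 6.65 CPM in the Treg libraries and 93.9 ± 11.6 CPM in the controls (−0.80 ± 0.15, edgeR adjusted p = 0.116), and Fhl1, a LIM protein of the titin spring region (−1.68 ± 0.34, edgeR adjusted p = 0.136). Fhl1 was at 227, 283 and 361 CPM in Treg 1 to 3, against 619, 742 and 1425 CPM in Control 1 to 3. Actn1, a non-muscle alpha-actinin, had −0.84 ± 0.20, and Cfl2, the muscle cofilin that severs actin filaments, had −0.54 ± 0.14 (edgeR adjusted p = 0.160 and 0.174). Among those above 0, Tln2, a talin of muscle attachment sites, had the smallest p (0.46 ± 0.22, edgeR adjusted p = 0.337).

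Promoter windows of RefSeq were found for 34 of the 39 genes, 45 windows in all with alternative starts. A CArG box was present in 6 of the 45 (13.3%, from 5 genes), against 1.63% of all 32851 windows of the same length, and the MEF2 site, the motif of a muscle transcription factor family, in 6 (13.3%, from 5 genes), against 3.19%. The letters CATTCC were present in 11 (24.4%), against 14.7%. Matches were searched on both strands, and matches of different motifs overlapped in 0 of the 45 windows. Windows of the same gene were counted separately, and the overlapping windows of Ldb3 hold the same CArG box. The CArG box was found at Acta1, Actc1, Ldb3, Myom1 and Nebl, and the MEF2 site at Ttn, Mybpc3, Myoz2, Myom3 and Synpo2l. These 10 genes had log2 fold changes on both sides of 0, from −0.71 for Synpo2l to 0.30 for Actc1. A match describes the letters in the window only.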

How the data were processed

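Total RNA from left ventricle was sequenced from stranded mRNA libraries as paired 101 bp reads, per the labels' protocols. The submitters' processing notes name HISAT2 2.1.0, Trimmomatic 0.39, Cuffdiff 2.2.1, featureCounts 2.0.6 and the build GRCm38, with no role for each; counting options and annotation release: not given in sources used here. Estimated counts, not normalized, are what the authors deposited, as a single table in which 46.51% to 50.03% of values above 0 are fractional. A further 6 columns, which fit no listed sample, were left out. Every row carries a gene ID. GENCODE M21 (GRCm38) gave names for 47224 IDs and left 505 without one. It also gave the coordinates and merged exon lengths. Of the members, 1 (Tnni3, with Dnaaf3) shares exon bases with a gene on its own strand and 8 with one on the opposite strand. Whether counting used strand is not stated, so their counts may include a neighbour's reads.

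Counts were rounded, 0.5 upward, filtered with filterByExpr (17365 genes), scaled with TMM and tested, Treg against control, with edgeR 4.0.16 (R 4.3.3; robust quasi-likelihood F test, two-sided, Benjamini-Hochberg over all genes, threshold 0.05). All 39 members passed the filter. The SE of a log2 fold change is its size over the root of its F statistic. TPM were computed from counts and exon lengths. Pair ratios used log2 of counts plus 0.5. DESeq2 1.42.0, limma 3.58.1 (voom, with and without quality weights), other scalings and filters, a replicate block and omitted libraries were alternatives. The members, lists, tests and alternatives were chosen with earlier results of these data known. Full values are given for members with an unadjusted p under 0.05 or groups that do not overlap and for the actin, troponin I and troponin T pairs; of the second list, at most 4 genes in each direction are named. Other genes were chosen after their values were seen. Markers of smooth muscle, endothelial cells, macrophages, neutrophils and erythroid cells overlapped between the groups in summed level. Control 3 had the lowest erythroid sum, 292 CPM against 1073 to 2849 CPM in the other libraries. Its neutrophil sum was the highest, 32.5 CPM against 6.53 to 17.3 CPM. Of 8 smooth muscle and pericyte markers, 3 lay above all controls (13.7% of all genes) and 0 below (11.7%).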

Additional observations from a re-analysis of the deposited data

How the results depend on the processing

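Counts of genes past the threshold, 0 higher and 0 lower in the Treg libraries by edgeR, moved with the tool and with Control 3. DESeq2 gave 322 higher and 328 lower, voom with sample quality weights 110 and 121, library totals without TMM 4 and 2, no filter 28 and 10, an adjusted p under 0.1 44 and 38, and omission of Control 3 with Treg 3 56 and 63. Omitting single libraries gave 0 to 119 higher and 0 to 111 lower, with all calls from the omission of Control 3. Among the members, DESeq2 gave 1 higher and 3 lower, quality weights 1 and 2, omission of Control 3 with Treg 3 0 and 2 (Pdlim3 and Synpo2l), an adjusted p under 0.1 0 and 1, and single omissions 0 higher and 0 to 2 lower. The cause was not tested.

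The labels do not say whether a shared replicate number marks a shared animal, litter or day. Deviations of same-numbered libraries correlated at −0.12, −0.23 and 0.05, and 0 of 6 libraries correlated best with their own number. Such correlations cannot exclude a pairing, since a shared litter or day need not show in them. With the replicate block edgeR called 0 genes and 0 members, and Nebl had 0.13. The sign of Nebl also turned with limma-voom (0.14), library totals (0.0002) and no filter (0.0088). With quality weights Ldb3 had −0.0807, Myot −0.0323, Myom2 −0.0968, Mybpc3 −0.0619 and Smyd1 −0.0125. Without Control 3 and Treg 3, Lmod2 had −0.0344, Ldb3 −0.14, Myot −0.0286, Palld −0.15, Obsl1 −0.0369 and Mybpc3 −0.23, and the log2 ratios Tpm3/Tpm1 and Myom3/Myom1 differed by 0.26 and −0.34.

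Over single omissions these members turned sign: Tnni1 (−0.94 to 0.092), Tpm2 (−0.31 to 0.011), Lmod2 (−0.0283 to 0.48), Ldb3 (−0.15 to 0.28), Nebl (−0.36 to 0.22), Myoz2 (−0.24 to 0.16), Mypn (−0.0108 to 0.60), Palld (−0.0807 to 0.47), Myom2 (−0.29 to 0.49), Myom3 (−0.93 to 0.11), Obsl1 (−0.0225 to 0.44), Mybpc3 (−0.24 to 0.52) and Smyd1 (−0.0127 to 0.29). So did the ratios Tpm3/Tpm1 (−0.41 to 0.39), Tpm4/Tpm1 (−0.28 to 0.32) and Myom3/Myom1 (−0.27 to 0.45). None of these had passed a threshold. The other 26 members and 9 ratios kept their direction over single omissions. Depth limits Tnni1 and Myoz1 most, at 7 to 36 and 17 to 64.8 counts per library.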
